A study of Bos taurus with 38 samples.

Results

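MYH1, MYH2 and MYH4 encode the fast adult myosin heavy chains IIx, IIa and IIb, and TNNT3 encodes the fast skeletal troponin T. These 4 of the 27607 genes in the count table are described here across 38 newborn calves. They were chosen by name, and each was matched by its Ensembl ID, which is ENSBTAG00000018204 for MYH1, ENSBTAG00000007090 for MYH2, ENSBTAG00000037794 for MYH4 and ENSBTAG00000022158 for TNNT3. All 4 passed the filter on low counts and are among the 12964 genes tested.

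Myosin heavy chain is the motor of the thick filament, and a fibre's contraction speed depends mainly on which heavy chain it makes. Type IIa fibres are fast and oxidative, type IIx fibres are faster and more glycolytic, and type IIb fibres are the fastest, although most cattle muscles hold little or no IIb protein. Troponin T ties the calcium sensor of the thin filament to tropomyosin, and the fast form accompanies the fast myosins. In the RefSeq annotation of ARS-UCD2.0, an assembly other than the one the counts were made on, MYH8, MYH4, MYH1, MYH2 and MYH3 lie in this order within one cluster on chromosome 19, with 1 uncharacterized gene between MYH4 and MYH1. TNNT3 is on chromosome 29. Coding stretches of these myosins are nearly identical. The counts use only uniquely mapped reads, so reads matching several myosins equally were dropped, and others could be placed on the wrong one. Low counts of one member beside high counts of another are therefore uncertain.

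The muscle was Longissimus dorsi (LD), a fast trunk muscle, biopsied 12 to 48 h after birth. The dams were black Angus or Angus-cross cows with at least 1 earlier calf. The control group (CTR) had 10 calves, 4 female and 6 male, whose dams received no Se-yeast, a yeast grown to hold organic selenium. In the other groups dams were given 3 boluses of it a week for 13 weeks, equal to 105 mg Se per week, in a single trimester of gestation. This was the first in TR1 (9 calves, 2 female and 7 male), the second in TR2 (10 calves, 3 female and 7 male) and the third in TR3 (9 calves, 5 female and 4 male). Cows of all 4 groups, CTR included, could reach a mineral with 120 mg/kg Se as Na selenite, so CTR is not a group without added Se. Dams were 6 to 9 years old in CTR, 5 to 9 in TR1 and TR2 and 5 to 8 in TR3, and each calf is a separate animal that gave 1 library. The same 10 CTR calves serve in all comparisons with CTR.

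Total counts ranged from 12921223 to 17471666 per calf. All 8 muscle marker genes of the list used (ACTA1, CKM, DES, MB, TPM1, MYL1, MYLPF and TNNI2) had counts in every calf, and their summed level ranged from 38501 to 147042 CPM. Values below are counts scaled to a common library total (CPM) with TMM factors, which ranged from 0.887 to 1.35. CPM is not per unit of transcript length, so levels are compared between calves and not between genes. These are bulk samples, in which fewer fibres of a type and less RNA per fibre cannot be told apart.

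MYH1 set 5 calves apart from the rest. CTR calves A2034 and A2035 held 939 and 1024 CPM of MYH1, TR1 calves A2040 and A2052 held 615 and 1274 CPM, and TR3 calf A2033 held 827 CPM. The next calf upward was TR1 calf A2067 at 5894 CPM, followed by CTR calf A2091 at 8407 CPM, and the highest was CTR calf A2042 at 38520.3 CPM. No TR2 calf was among the 5. The limit of 1300 CPM used to name them was chosen after their values were seen, and values without these calves are given beside the results they move most. A2052 also had the highest TMM factor, 1.35, and the lowest summed level of muscle markers.

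**Figure D1:**
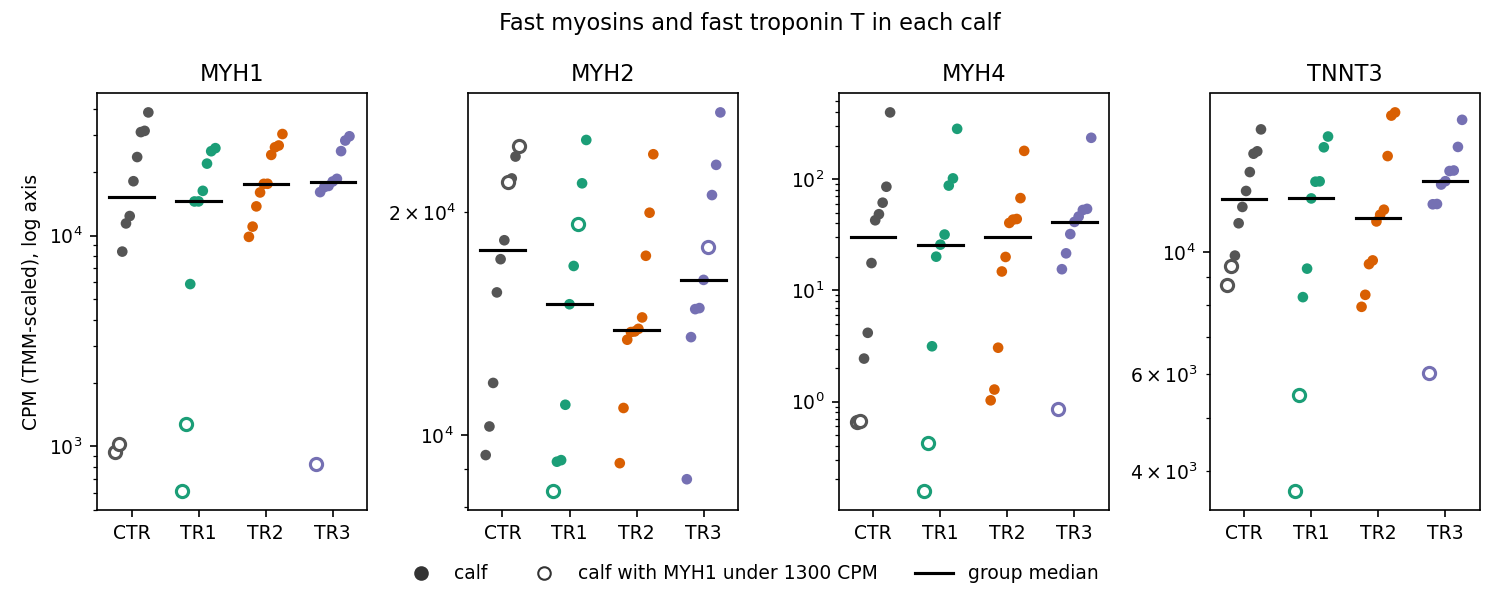
CPM of MYH1, MYH2, MYH4 and TNNT3 in each calf on log axes, by treatment group, with open circles for the 5 calves with MYH1 under 1300 CPM and a black line at each group median. The 4 groups overlap in every panel, and the open circles stand far below the rest for MYH1 (615 to 1274 CPM), lie at the bottom for MYH4 (0.158 to 0.855 CPM) and are spread over the range for MYH2.

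For MYH1, the fast IIx chain, CTR calves ranged from 939 to 38520.3 CPM with a median of 15277. TR1 calves ranged from 615 to 26060 CPM (median 14554.5), TR2 calves from 9877 to 30412 (median 17643.5) and TR3 calves from 827 to 29672 (median 18094). The groups overlapped along nearly their whole range, and TR2, with no calf under 1300 CPM, had the narrowest spread. The order of the group means was TR1 (14054 ± 9668 CPM, SD, n = 9), CTR (17707 ± 13124, n = 10), TR3 (19016 ± 8560.16, n = 9) and TR2 (19379 ± 7122, n = 10), and no neighbours in this order differed by more than their SD. In TR3, 8 of 9 calves lay above the CTR median, in TR2 7 of 10 and in TR1 4 of 9. Over all 38 calves the coefficient of variation was 55.3%, the highest of the 34 genes within 4 times its mean level, whose median was 25.4%.

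MYH1 did not pass the test in TR1, TR2 or TR3. In the edgeR fit, with terms for dam age and calf sex, the log2 fold change was -0.34 in TR1 vs. CTR (SE 0.57, 95% confidence interval -1.49 to 0.81). It was 0.08 in TR2 vs. CTR (SE 0.54, interval -1.03 to 1.18) and 0.24 in TR3 vs. CTR (SE 0.57, interval -0.92 to 1.40). As folds, the intervals ran from 0.357 to 1.75 in TR1, from 0.491 to 2.27 in TR2 and from 0.527 to 2.64 in TR3, so that sizeable differences in either direction fall within them. Without the 5 low calves, the intervals narrowed to -0.98 to 0.22 in TR1, -0.82 to 0.27 in TR2 and -0.46 to 0.71 in TR3, and the TR2 estimate turned from 0.08 to -0.27. Leaving out 1 calf was enough for that turn: the TR2 estimate was negative without CTR calf A2034, A2035 or A2091 or without TR2 calf A2068, and lowest without A2035 (-0.11). Single calves also moved the other estimates, TR1 from -0.51 (without A2035) to -0.09 (without A2042) and TR3 from 0.09 (without A2034) to 0.49 (without A2041), with no change of sign.

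For MYH2, the IIa chain, CTR calves ranged from 9392 to 24583 CPM with a median of 17815. TR1 calves ranged from 8404 to 25066 CPM (median 15026), TR2 calves from 9158 to 23975 (median 13860.3) and TR3 calves from 8711 to 27313 (median 16209.8). All groups spanned about the same range, with lower medians in TR1 and TR2. The order of the means was TR2 (15084 ± 4338), TR1 (15119.5 ± 6099), TR3 (17526 ± 5599) and CTR (17528 ± 5658), again with no step beyond the SD. The coefficient of variation over the 38 calves was 32.8%, the 9th highest among 36 genes of similar level. The 5 calves with little MYH1 did not share a low MYH2, since CTR calf A2035 held 24583 CPM, the highest value in its group, and A2052 held 8404 CPM, the lowest of all.

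MYH2 was below the CTR median in 6 of 9 TR1 calves and 8 of 10 TR2 calves, but did not pass the test in any comparison. The log2 fold change was -0.23 in TR1 (SE 0.23, interval -0.70 to 0.24), -0.22 in TR2 (SE 0.22, interval -0.67 to 0.22) and 0.06 in TR3 (SE 0.25, interval -0.44 to 0.56). Without the 5 calves the TR1 and TR2 values shrank to -0.03 and -0.07.

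MYH4, the IIb chain, was the most variable of the 4 genes. CTR calves ranged from 0.656 to 398 CPM (median 30.1), TR1 calves from 0.158 to 283 (median 25.8), TR2 calves from 1.03 to 179.5 (median 30.2) and TR3 calves from 0.855 to 235 (median 41.3). In each group 1 calf stood well above the others, and its value was 398 CPM in CTR calf A2042, 283 CPM in TR1 calf A2047, 179.5 CPM in TR2 calf A2066 and 235 CPM in TR3 calf A2024. At the other end, the 5 calves with little MYH1 also held the 5 lowest MYH4 levels of the series in CPM, from 3 to 14 reads each. TR2 calves A2023 and A2100 came next at 1.03 and 1.28 CPM (13 and 21 reads), although their MYH1 stood at 11048 and 17651 CPM. In reads, A2023 was below low-MYH1 calf A2033, which had 14, so the order of these calves is uncertain. The means were ordered TR2 (41.5 ± 53.4 CPM), TR3 (55.5 ± 69.8), TR1 (61.6 ± 91.1) and CTR (66.2 ± 120.3), with every SD larger than its mean. The coefficient of variation over all calves was 151%, the 14th highest of 5140 genes within 4 times its level.

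The fitted differences in MYH4 were too imprecise to give a direction. The log2 fold change was -0.18 in TR1 (SE 1.04, interval -2.29 to 1.94), -0.61 in TR2 (SE 0.99, interval -2.62 to 1.41) and -0.37 in TR3 (SE 1.09, interval -2.57 to 1.84). Leaving out CTR calf A2042 was enough to turn the sign in each of these comparisons: without it, TR1 came to 1.10, TR2 to 0.88 and TR3 to 0.85. The estimates without the low calves were -0.08 in TR1, -0.94 in TR2 and -0.46 in TR3. MYH4 also turned sign in TR1 vs. CTR without TR1 calf A2058 and in TR3 vs. CTR without TR1 calf A2047.

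TNNT3, the fast troponin T, had the lowest coefficient of variation of the 4 genes over all 38 calves, although within TR1 and TR2 that of MYH2 was slightly lower. CTR calves ranged from 8709 to 16734.5 CPM (median 12509), TR1 calves from 3680 to 16241 (median 12529), TR2 calves from 7955 to 17967.5 (median 11539) and TR3 calves from 6023 to 17418 (median 13468). The groups overlapped, and the 3 lowest calves of the series were A2052 (3680 CPM), A2040 (5501 CPM) and A2033 (6023 CPM), all with little MYH1. The other low-MYH1 calves, A2034 and A2035, held 8709 and 9431 CPM, the lowest values in CTR. The means were ordered TR1 (10888 ± 4418 CPM), TR2 (12119 ± 3633), CTR (12541 ± 2732) and TR3 (13149 ± 3128), with no step beyond the SD. The coefficient of variation over all calves was 28.5%, 20th among 46 genes of similar level.

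TNNT3 did not pass the test in any comparison. The log2 fold change was -0.18 in TR1 (SE 0.22, interval -0.63 to 0.27), -0.04 in TR2 (SE 0.21, interval -0.47 to 0.38) and 0.08 in TR3 (SE 0.23, interval -0.38 to 0.55). The TR1 value rested on TR1 calf A2052, without which it was -0.05. As folds, these intervals ran from 0.647 to 1.20 in TR1, from 0.721 to 1.30 in TR2 and from 0.767 to 1.46 in TR3. They were the narrowest of the 4 genes. Leaving out the low calves, TNNT3 had -0.06 in TR1, -0.13 in TR2 and 0.06 in TR3.

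**Figure D2:**
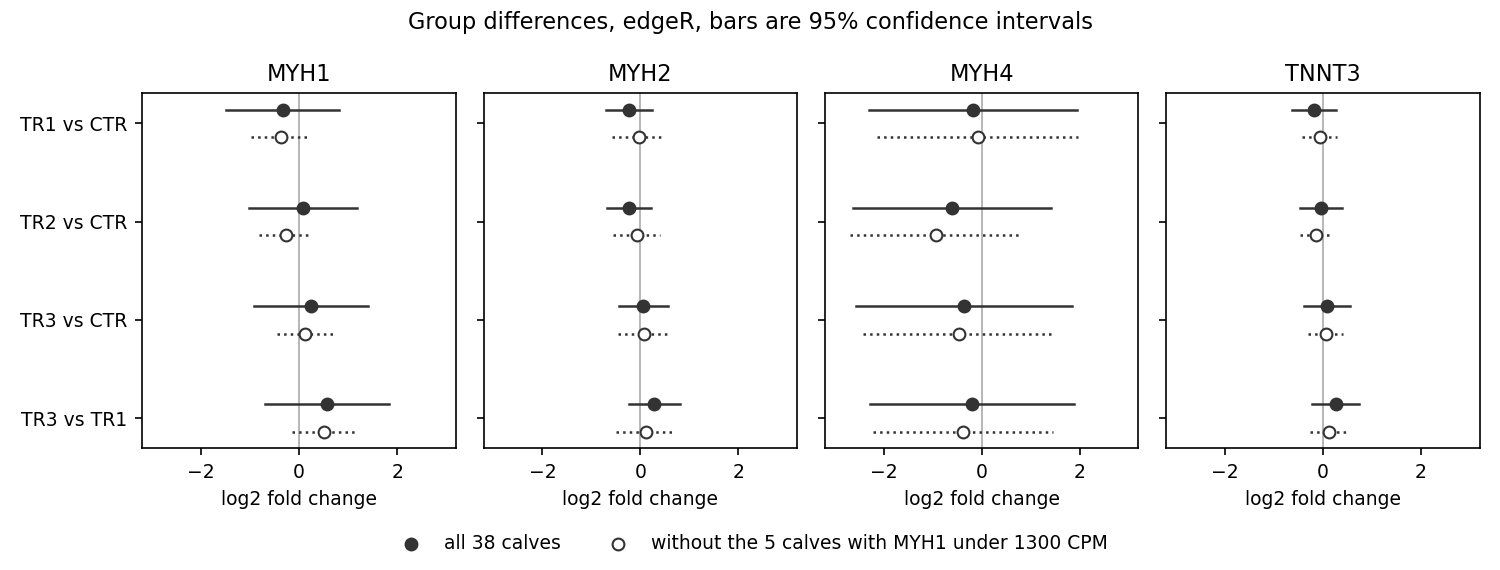
Log2 fold changes of the 4 genes in 4 comparisons, with 95% confidence intervals from edgeR, for all 38 calves (filled) and without the 5 calves with MYH1 under 1300 CPM (open). Every interval crosses 0, the intervals of MYH4 are the widest (-2.29 to 1.94 in TR1 vs. CTR), and those of MYH1 narrow without the 5 calves.

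None of the 4 members passed an adjusted p of 0.05 in any of the 7 edgeR tests. Over all 12964 genes the share called was also 0% in TR1 vs. CTR, in TR2 vs. CTR, in TR3 vs. CTR, in TR3 vs. TR1, for dam age and for any difference among the groups, while DESeq2, run for these comparisons except the last, called 1 gene in TR2 vs. CTR and 0 in each of the others. At an unadjusted p under 0.05, again 0 of the 4 members passed, against 331 genes (2.55%) in TR1, 1081 (8.34%) in TR2, 175 (1.35%) in TR3, 758 (5.85%) in TR3 vs. TR1, 436 (3.36%) for dam age and 790 (6.09%) for any group. DESeq2 placed 367, 1175, 197, 779 and 471 genes under that limit in the first 5 of these tests. The smallest unadjusted p of a member was 0.265, for MYH2 in TR3 vs. TR1, and the smallest adjusted p was 0.777, for MYH2 in TR2 vs. CTR. Beside such backgrounds, 0 of 4 is not a result about the members.

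TR3 was set against TR1 directly, to compare a late with an early treatment. The log2 fold change was 0.58 for MYH1 (SE 0.62, interval -0.69 to 1.84), 0.29 for MYH2 (SE 0.25, interval -0.23 to 0.80), -0.19 for MYH4 (SE 1.03, interval -2.27 to 1.89) and 0.26 for TNNT3 (SE 0.24, interval -0.22 to 0.75). MYH1 of 8 of 9 TR3 calves lay above the TR1 median. TR1 calf A2052 carried a large part of these values, which without it were 0.29 for MYH1, 0.16 for MYH2 and 0.06 for TNNT3. The values without the low calves were 0.50 for MYH1, 0.11 for MYH2, -0.38 for MYH4 and 0.12 for TNNT3. The MYH4 value turned positive without TR1 calf A2047 (1.77) or A2032.

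Differences between females and males were smaller than the spread within each sex. MYH1 stood at 18823 ± 9026 CPM in 14 females and 16874 ± 10239 in 24 males, and TNNT3 at 12852 ± 2985 and 11792 ± 3727. In the fit the log2 fold change of females vs. males was -0.04 for MYH1 (SE 0.44), -0.13 for MYH2 (SE 0.18), -0.02 for MYH4 (SE 0.74) and 0.06 for TNNT3 (SE 0.17). For sex, 4 genes (0.0309%) passed the adjusted and 857 (6.61%) the unadjusted p, and no member was among them. Per year of dam age, the slopes were 0.17 for MYH1 (SE 0.18), 0.03 for MYH2 (SE 0.07), -0.10 for MYH4 (SE 0.36) and 0.02 for TNNT3 (SE 0.06).

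The counts of MYH1, MYH2 and MYH4 were next taken as shares of their sum in each calf, which does not depend on how libraries are scaled. The 3 myosins together made up 1.30% (A2052) to 5.14% of a calf's counts. MYH1 held from 3.08% of the 3 counts in A2040 (95% Wilson interval 3.03 to 3.14%) to 79.7% in A2042 (79.6 to 79.8%), where the interval covers counting error only. The other low calves stood at 4.00% (A2035), 4.09% (A2034), 4.40% (A2033) and 13.2% (A2052), and the next were A2067 at 19.0% and TR2 calf A2090 at 29.2%. The MYH1 share had a median of 46.0% in CTR (SD 26.7 percentage points), 56.9% in TR1 (SD 24.3), 55.3% in TR2 (SD 10.9) and 52.7% in TR3 (SD 19.6). The groups overlapped, and no 2 medians differed by more than the SDs of CTR, TR1 or TR3. MYH4 never exceeded 1.18% (A2047, 1.14 to 1.21%). Counts are not per transcript length, and a share of counts is not a share of fibres or protein.

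In the 5 low calves the MYH1 count amounted to 4.27% (A2034), 4.16% (A2035), 3.18% (A2040), 15.2% (A2052) and 4.60% (A2033) of the MYH2 count. Whether some of these reads came from MYH2 transcripts was not tested.

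**Figure D3:**
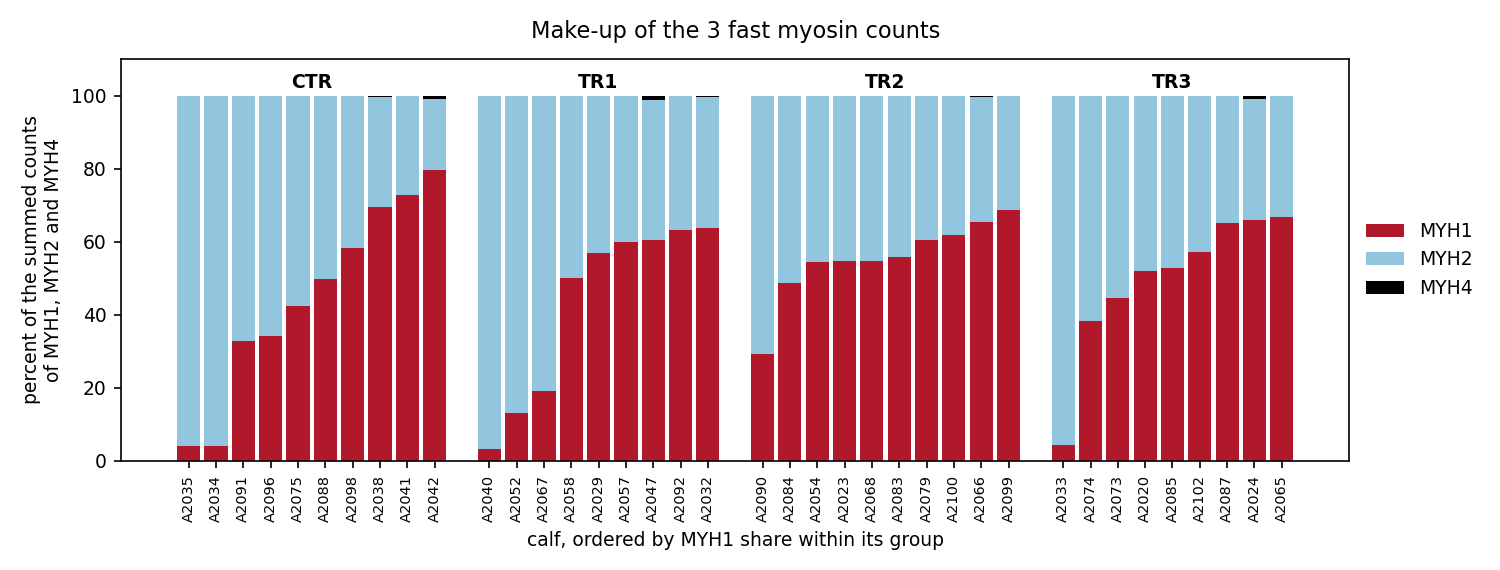
Percent of the summed counts of MYH1, MYH2 and MYH4 taken by each gene, 1 bar per calf, ordered by the MYH1 share within each treatment group. MYH1 takes 3.08 to 13.2% in 5 calves of CTR, TR1 and TR3 and at least 19.0% in the others, and MYH4 is visible as a thin cap in few calves.

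The study's own scale was computed as well. It is the difference between group means of DESeq2's variance-stabilized values, centred and divided by the SD of that difference over all genes, and a size of 1.5 or more is the cutoff, reached by 10.5% of genes in TR1, 10.4% in TR2 and 10.9% in TR3. It takes no account of the spread between calves. In TR1 3 of the 4 members were past the cutoff, in TR2 1 and in TR3 2. The TR1 count depended on the scale: on log2 CPM none of the 4 reached it there (MYH1 -1.47, MYH2 -1.10, MYH4 -0.33 and TNNT3 -1.41), and after adjustment for dam age and sex MYH1 fell short (-1.25) and MYH4 reached it (1.52). MYH1 stood at -2.05 in TR1, 4.15 in TR2 and 3.63 in TR3, MYH2 at -1.54, -0.98 and 0.06, and TNNT3 at -1.98, -0.36 and 0.42. MYH4 stood at 0.26, 0.22 and 5.83, so that its TR3 value was positive where the edgeR estimate was -0.37, and both lay within the spread. Before scaling, the MYH1 differences were -0.33, 0.77 and 0.45, whereas the SD among CTR calves alone was 1.95, and for MYH4 in TR3 the difference was 0.72 beside an SD of 2.52. Without the 5 low calves MYH1 changed to -1.73 in TR1, -0.47 in TR2 and 0.75 in TR3, MYH2 in TR1 to -0.60 and TNNT3 in TR1 to -0.70. MYH4 moved further, to 1.78 in TR1, -4.13 in TR2 and 2.79 in TR3, so that its TR2 value turned and passed the cutoff.

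The members did not vary as one block. Correlations of log2 CPM were computed for the 6 pairs, with two-sided permutation p-values from 100000 resamples. Pairs with MYH1 were taken over the 33 calves above 1300 CPM, because the other 5 form a separate cluster too small to test. MYH1 and TNNT3 were high and low together in these calves (Pearson r = 0.51, permutation p = 0.0025, adjusted p = 0.0076; Spearman rho = 0.65, permutation p = 6.0e-05, adjusted p = 0.00036). Without the 2 calves farthest from the MYH1 median, A2067 and A2091, r was 0.62. After group means were removed, rho was 0.53. MYH1 and MYH2, the chains with most of the counts, showed no such relation (r = -0.17, permutation p = 0.36, adjusted p = 0.36; rho = -0.07, permutation p = 0.68, adjusted p = 0.68), and without the same 2 calves r was -0.01. MYH1 and MYH4 had r = 0.26 (permutation p = 0.14, adjusted p = 0.21) and rho = 0.23 (permutation p = 0.20, adjusted p = 0.30), with r = 0.35 without those calves.

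Calves with more MYH2 tended to hold less MYH4. Over all 38 calves rho was -0.41 (permutation p = 0.011, adjusted p = 0.023), while r was -0.27 (permutation p = 0.094, adjusted p = 0.19). Without A2052 and A2074, the farthest from the MYH2 median, r was -0.47. Without the 5 low calves, rho was -0.44 and its adjusted p 0.036 by permutation, and without CTR calf A2034 alone rho was -0.39 and its adjusted p 0.052. MYH4 and TNNT3 correlated over all calves (r = 0.64, permutation p = 2.0e-05, adjusted p = 0.00012, and rho = 0.41, permutation p = 0.012, adjusted p = 0.023). That relation rested on the low calves, since without A2052 and A2040 r was 0.49 and without all 5 it was 0.29 (permutation p = 0.11, adjusted p = 0.21) with a rho of 0.13 (permutation p = 0.49, adjusted p = 0.58). MYH2 and TNNT3 had r = 0.16 (permutation p = 0.35, adjusted p = 0.36) and rho = 0.13 (permutation p = 0.42, adjusted p = 0.51), and r was -0.03 without A2052 and A2074.

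**Figure D4:**
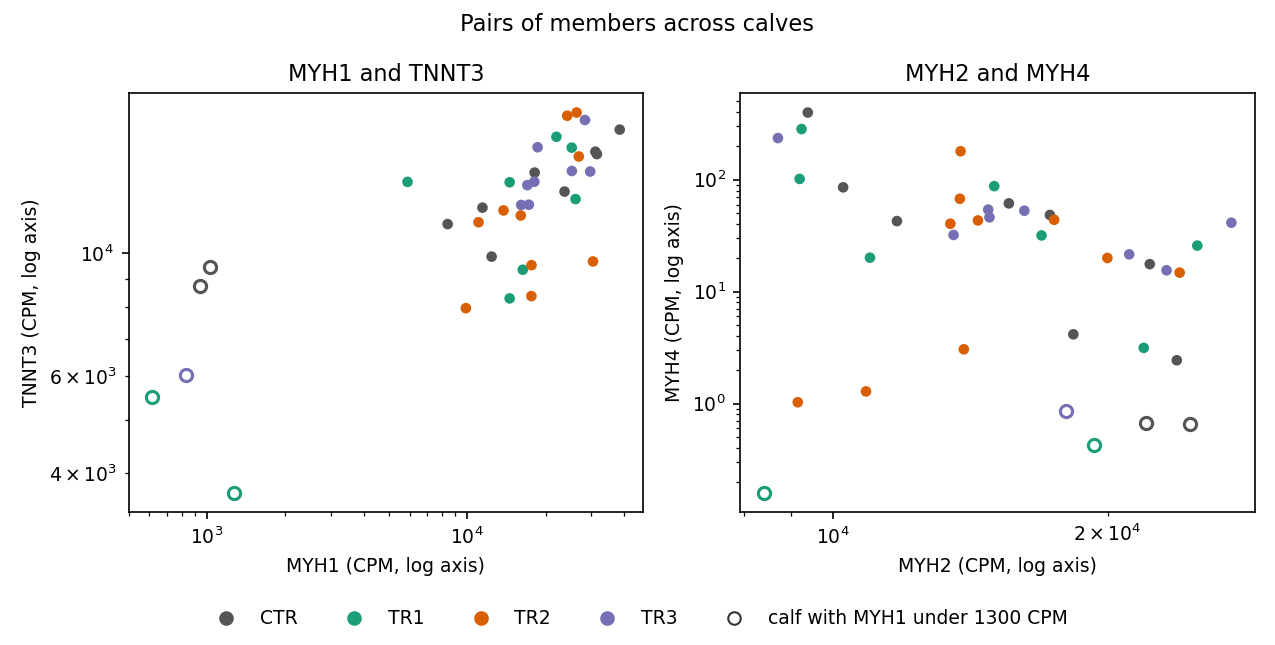
TNNT3 against MYH1 (left) and MYH4 against MYH2 (right) in CPM on log axes, 1 circle per calf coloured by treatment group, open for the 5 calves with MYH1 under 1300 CPM. On the left the 33 filled circles rise together (rho = 0.65) and the open circles form a cluster of their own. On the right calves with high MYH2 lie lower in MYH4 (rho = -0.41 over all 38 calves).

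Among 2578 genes with a symbol and a mean of at least 1 CPM, the 5 most like each member by Spearman correlation over the 38 calves were listed as a description. Symbols came only from the study's own gene tables, so these genes are a part of the 12964 tested. Genes without a symbol there, TNNC2 and ATP2A1 among them, could not appear. All genes of a calf share its library and depth, and values for MYH1 are given over the 33 calves above 1300 CPM. For MYH1 they were ACTN3, the fast alpha-actinin of the Z-disc (0.75 over the 33 calves), MYBPC2, the fast myosin binding protein C (0.73), TPM1, a tropomyosin (0.72), CALM3, a calmodulin (0.75), and MYLPF, the fast regulatory light chain (0.69). For TNNT3 they were MYLPF (0.96 over 38 calves), TPM1 (0.94), MYL1, the fast essential light chain (0.93), PGK1, a glycolytic kinase (0.92), and DBN1, an actin-binding protein (0.89). Over the 33 calves the TNNT3 values were 0.84 to 0.94, and MYLPF and TPM1 occur in both sets. MYH2 had lower values throughout. Its nearest genes were ZNF385D (0.63), NBEA (0.60), NCOR1, a nuclear corepressor (0.58), ZNF827 (0.54) and AGBL1 (0.53). No gene of the fast fibre list is among them. MYH4 had GADL1 (0.68), U7 (0.66), CALM2, another calmodulin (0.65), B3GALNT1 (0.65) and MYO1A, an unconventional myosin (0.64). Over the 33 calves the values were 0.40 to 0.62 for MYH2 and 0.47 to 0.67 for MYH4. U7 is a small nuclear RNA with many near-identical copies, and its count is uncertain.

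The relatives of the cluster were MYH3, the embryonic chain, and MYH8, the perinatal chain. MYH3 ranged from 3.01 to 551 CPM over the calves and MYH8 from 1.11 to 129.6 CPM. In the low-MYH1 calves MYH3 was 3.01 CPM (A2034), 4.07 (A2035), 5.38 (A2040), 18.0 (A2052) and 49.3 (A2033), but TR2 calf A2083 held 4.09 CPM with a MYH1 of 17636 CPM. Neither gene passed the test. The log2 fold change of MYH3 was -1.41 in TR1 (SE 0.81), -1.03 in TR2 (SE 0.77) and -0.92 in TR3 (SE 0.84), and that of MYH8 was -0.05 (SE 0.58), 0.21 (SE 0.56) and -0.35 (SE 0.60).

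Partners of the fast myosins were examined as a list of 14 thin and thick filament, Z-disc and calcium handling genes, of which 12 could be paired with an Ensembl ID. These pairings come from genes the study itself called on these calves, so neither this list nor the others is independent of its results. No gene of the 12 passed an adjusted p of 0.05. In TR1 all 12 estimates were negative, with a median of -0.23 beside 0.00 over all genes, of which 50.4% were positive. In TR2 3 were positive and 9 negative (median -0.06; 51.3% of all genes positive), and in TR3 11 were positive and 1 negative (median 0.06; 47.2% of all genes positive). The genes of this list vary together, so these counts are not 12 separate results. Without the 5 low calves TR1 still had 12 negative estimates with a median of -0.14, TR2 11 and TR3 4. Scaled by library size in place of TMM, 11 of 12 were negative in TR1 (median -0.21), where 70.6% of all genes were then positive.

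Among them, ACTA1, the skeletal actin and the most abundant of the list, stood at 44737 ± 7750.01 CPM in CTR and 36888 ± 19540.4 in TR1, with a log2 fold change of -0.27 (SE 0.24). MYL1 had -0.16 (SE 0.22) and TPM1 -0.21 (SE 0.27) in TR1. PVALB, parvalbumin, a calcium buffer of fast fibres, was the 1 gene of the 12 at an unadjusted p under 0.05 in TR1 (2.55% of all genes), with 1.87 ± 2.41 CPM in CTR beside 0.263 ± 0.239 in TR1 and a log2 fold change of -3.11 (SE 0.91, unadjusted p = 0.0016, adjusted p = 1.00, edgeR). At this level it rests on few reads. MYOZ1, a Z-disc protein of fast fibres, was the 1 of 12 in TR2 (8.34% of all genes), with 0.29 (SE 0.14, unadjusted p = 0.045, adjusted p = 0.59, edgeR). Beside those shares neither count is a result about the list, and without the 5 low calves no gene of it was under that limit in TR2.

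Glycolysis and phosphagen genes, which fuel fast fibres, had a similar sign pattern. In TR1 all 8 of the 8 tested were negative (median -0.20), in TR2 4 and in TR3 2, and none passed either p. CKM, the muscle creatine kinase, had -0.20 (SE 0.15), ALDOA, an aldolase, -0.22 (SE 0.18) and ENO3, the muscle enolase, -0.18 (SE 0.20) in TR1. Without the 5 low calves 6 of 8 were negative in TR1 with a median of -0.04, 6 in TR2 and 1 in TR3. In TR2 1 positive estimate was then under an unadjusted p of 0.05 (edgeR), beside 782 of all 12964 genes. With library size scaling 7 of 8 were negative in TR1.

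**Figure D5:**
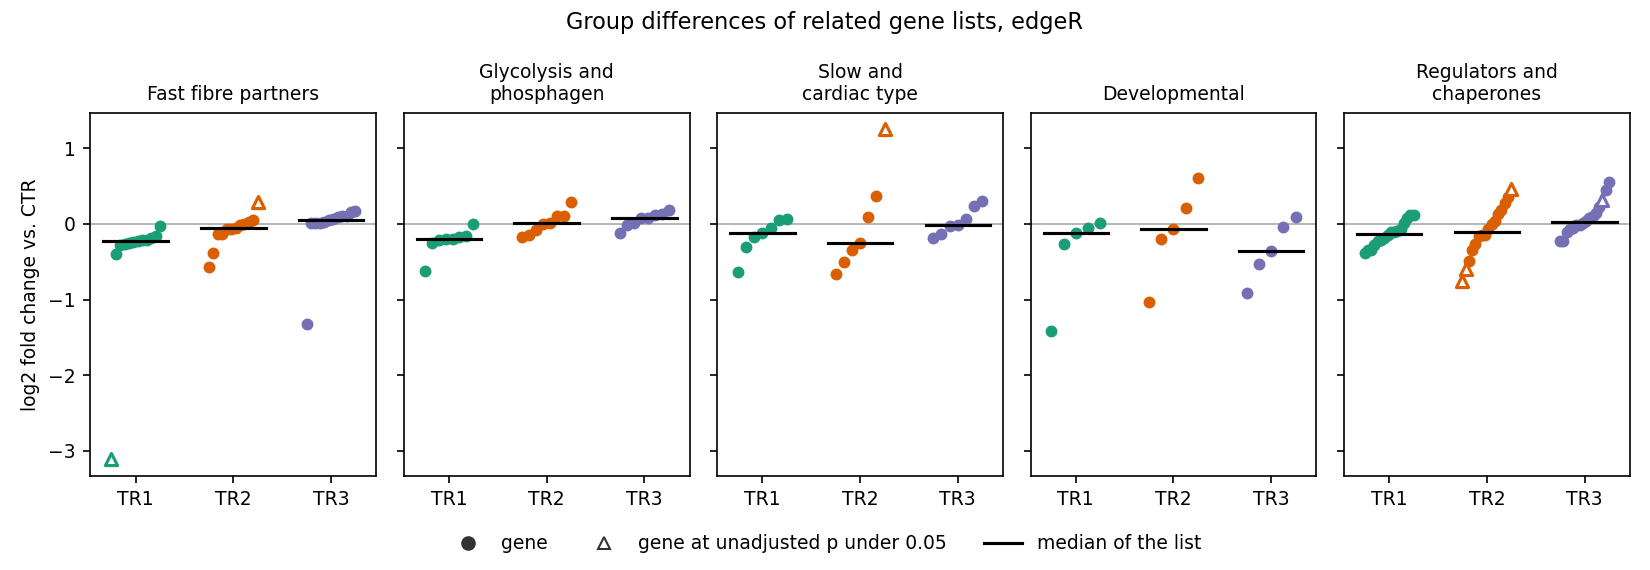
Log2 fold changes vs. CTR (edgeR) of the genes in 5 lists related to fast myosins, for the 3 treatments, with open triangles for genes at an unadjusted p under 0.05 and a black line at the median of each list. Fast fibre partners lie below 0 in TR1 (12 of 12, median -0.23) and close to 0 in TR3 (median 0.06), and no gene passed an adjusted p of 0.05.

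In the slow and cardiac type list, 7 of 14 genes were paired and the slow myosin MYH7 was not among them. Its medians were -0.12 in TR1, -0.25 in TR2 and -0.01 in TR3, and without the low calves 0.30, 0.40 and 0.11. MB, myoglobin, had -0.05, -0.34 and -0.01 (SE 0.25, 0.24 and 0.26), and ATP2A2, the slow calcium pump, had 0.05, -0.25 and -0.03. CSRP3, a stress-responsive Z-disc protein, had 1.25 in TR2 (SE 0.60, unadjusted p = 0.043, adjusted p = 0.59, edgeR). It stood at 776 ± 381 CPM in CTR and 2243 ± 3452 in TR2, where the SD exceeded the mean. It was the 1 gene of the 7 under an unadjusted p of 0.05 in TR2, where 8.34% of all genes were. No gene of this list was under an unadjusted p of 0.05 without the low calves. Of the developmental list, 5 of 7 genes were tested, with medians of -0.12, -0.07 and -0.35 (0.03, 0.06 and -0.64 without the low calves), and none was under an unadjusted p of 0.05. MYL6B, ACTC1 and MYBPH had the highest levels in it, and their estimates lay between -0.53 and 0.60.

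Among 16 regulators of fibre type and myosin chaperones, 3 were under an unadjusted p of 0.05 in TR2 and 1 in TR3, where 8.34% and 1.35% of all genes were. Leaving out the low calves gave counts of 1 for TR1, 2 for TR2 and 0 for TR3, beside 375, 782 and 307 of all 12964 genes. MAF, a large Maf transcription factor, stood at 62.4 ± 10.1 CPM in CTR and 85.7 ± 15.9 in TR2 (log2 fold change 0.46, SE 0.13, unadjusted p = 0.0018, adjusted p = 0.50, edgeR). In TR3 it stood at 78.1 ± 17.3 CPM (0.32, SE 0.15, unadjusted p = 0.037, adjusted p = 1.00, edgeR). PPARGC1A, a coactivator of oxidative genes, had -0.60 in TR2 (SE 0.23, unadjusted p = 0.013, adjusted p = 0.54, edgeR) and SIX2, a homeobox factor, -0.75 (SE 0.32, unadjusted p = 0.023, adjusted p = 0.57). Neither MEF2C, a muscle transcription factor (-0.28 in TR1, -0.16 in TR2 and -0.06 in TR3), nor NFIX (0.02, 0.00 and 0.07) nor the myosin chaperone UNC45B (-0.19, -0.14 and 0.11) was under that limit. The 4 atrophy genes had medians of 0.66, 0.73 and -0.47, which without the low calves were 0.00, 0.40 and -0.06, with no gene then under an unadjusted p of 0.05. Of these, TRIM63, a ubiquitin ligase of the sarcomere, had 0.76 in TR1 (SE 0.38), FOXO3 0.77 in TR2 (SE 0.38, unadjusted p = 0.047, adjusted p = 0.59, edgeR), FOXO1 0.35 in TR1 (SE 0.51) and FBXO32 0.93 in TR1 (SE 0.75).

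Of the 8 muscle markers, several of which are also in the lists above, 7 had negative estimates in TR1 (median -0.19), 5 in TR2 (median -0.06) and 3 in TR3 (median 0.01), and none was under an unadjusted p of 0.05. The TR1 median without the low calves was -0.06. Markers of other cell types were summed in each group beside these results, and their part in them was not tested. Fibroblast markers (5 of 6 paired) ranged in sum from 425 to 1134 CPM in CTR and from 292 to 598 CPM in TR2, with 223 to 1217 CPM in TR1 and 359.8 to 1034 CPM in TR3. In TR2 all 5 had negative estimates at an unadjusted p under 0.05 (8.34% of all genes in that comparison; median -0.57), also without the low calves, and none passed the adjusted p. Red blood cell markers (2 of 3) spread widely in every group, from 8.60 to 449 CPM in CTR, with TR1 at 15.8 to 371, TR2 at 6.11 to 453 and TR3 at 20.5 to 301 CPM. Endothelial and smooth muscle markers (4 of 6) ranged from 97.2 to 238 CPM in CTR, with TR1 at 100.5 to 477, TR2 at 127 to 233 and TR3 at 85.7 to 303 CPM. In TR2 all 4 had positive estimates (median 0.24), 1 of them under an unadjusted p of 0.05 (edgeR). Of all genes in that comparison, 51.3% were positive and 8.34% were under that limit. Without the low calves none was under that limit. Immune cell markers (4 of 5) stayed between 20.9 and 277 CPM and nerve sheath and satellite cell markers (3 of 3) between 29.3 and 192.8 CPM over all groups. Adipocyte markers (3 of 5) reached 42.5 CPM in TR1 calf A2040 and at most 14.5 CPM in any other calf, and ADIPOQ, which defines the type, had no count in 13 calves. Adipocyte medians were 0.86 in TR1, -0.70 in TR2 and -0.77 in TR3. Under an unadjusted p of 0.05 was 1 marker, in TR2 (edgeR), where 8.34% of all genes were. Without the low calves these medians were 0.17, -0.59 and -1.24. Then 1 marker was under that limit in TR2 and 1 in TR3, beside 782 and 307 of all 12964 genes. Both red blood cell markers had negative estimates in every treatment. No red blood cell, immune cell or nerve sheath and satellite cell marker was under that limit.

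In the 5 low-MYH1 calves the summed muscle markers were 105284 CPM (A2034), 104915 (A2035), 61190.1 (A2040), 38501 (A2052) and 72735 (A2033). The CTR pair thus held muscle markers within the range of the other CTR calves, which began at 90758 CPM, and A2052 held the lowest level of all. This sum does not measure muscle content apart from fast fibre genes. ACTA1, TPM1, MYL1, MYLPF and TNNI2 are also in the fast fibre list, and TPM1 and MYLPF were among the genes most like MYH1. A part for muscle content in the low MYH1 of A2040, A2052 and A2033 was not tested.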

How the data were processed

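The deposited table holds raw counts per Ensembl gene, made by the authors from poly-A, strand-specific, paired-end libraries. After quality control they mapped reads to ARS-UCD1.2 with STAR 2.7.3a and took its own gene counts, which use only uniquely mapped reads. The strand column kept is not given in the sources used here. Nothing was mapped again.

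Of 27607 genes in 38 calves, 12964 passed filterByExpr (sex and group). Counts were scaled by TMM and tested with edgeR 4.0.16 (quasi-likelihood F-test, Benjamini-Hochberg over all genes), with dam age, sex and group. SEs are the log2 fold change over the root of F. The standardized difference used the vst of DESeq2 1.42.0 and is not a test. Other versions were R 4.3.3, limma 3.58.1, Python 3.11.15, numpy 2.4.6 and scipy 1.17.1. The fit was tested on simulated counts. Any 2 calves of a group differed beyond counting error (chi-square per gene of at least 17.75).

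The members and lists were chosen with earlier results of these data known. Symbols came from the study's gene tables. Sexes are as labelled per sample, which for CTR differ by 1 calf from the series text. Named from each list were members at an unadjusted p under 0.05 in a comparison with CTR, at most 4, and the 3 of highest mean CPM. The group comparisons and sex were retested with DESeq2, scaling by library size, every gene that had a count and a robust fit, and the group comparisons with just the 2 groups compared. Dam age was retested with DESeq2 alone and the any-group test not at all. The first 5 tests were also repeated without covariates, without sex (not for sex), with dam age in classes, and leaving out each calf. The standardized difference was repeated on log2 CPM (prior count 2), unfiltered and adjusted for dam age and sex, and correlations with library size scaling, after removing group means and leaving out each calf. Leaving out the 5 calves with MYH1 under 1300 CPM, and the lists under library size scaling, were added after seeing the data. Depth was 12921223 to 17471666 counts per calf.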

Additional observations from a re-analysis of the deposited data

Results flagged for a closer look

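Each member was checked in each group for a calf far from the rest, on the CPM and log2 scales, in 32 checks. Chance alone would flag about 1 in 20 only where values are normally distributed. MYH4 on the CPM scale is skewed, so this rate does not hold for it, and checks of the same values on both scales are not separate. TR3 calf A2033 stood apart as the lowest of its group for MYH1 (827 CPM) and TNNT3 (6023 CPM), on both scales, and for MYH4 (0.855 CPM) on the log2 scale. The highest MYH4 stood apart on the CPM scale in every group, with 398 CPM in CTR calf A2042, 283 CPM in TR1 calf A2047, 179.5 CPM in TR2 calf A2066 and 235 CPM in TR3 calf A2024. On the log2 scale none of these 4 high values did. The 4 low-MYH1 calves of CTR and TR1 were not singled out by this check, which looks for 1 calf at a time and has no power where 2 lie together.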

How the results depend on the processing

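In the 3 comparisons with CTR, TR3 vs. TR1 and sex, no member passed an adjusted p of 0.05 under any alternative, calves left out in turn included, where the smallest unadjusted p was 0.092 and the smallest adjusted p 0.63. Of 172 log2 fold changes under the other alternatives, 164 kept their direction. With only the 2 groups compared, TR3 vs. CTR became -0.0861 for MYH1 and -0.00887 for TNNT3. Without covariates, MYH2 in TR3 became -0.00013 and MYH1 in females vs. males 0.16. With dam age in classes, females vs. males became 0.10 for MYH1 and 0.78 for MYH4. Without the 5 low-MYH1 calves, MYH1 in TR2 became -0.27, MYH2 in females vs. males 0.0739, the standardized differences in TR2 -0.47 for MYH1 and -4.13 for MYH4, and the Spearman correlation of MYH4 and TNNT3 0.13. On log2 CPM the MYH4 standardized difference in TR1 became -0.33. With library size scaling, the Spearman correlation of MYH2 and TNNT3 became -0.0493. The causes were not tested. Over all genes, adjusted calls were 2 (0 with the filter) in TR3 vs. CTR, 11 (0) in TR3 vs. TR1 and 11 (4) for sex without a filter, where more genes are tested, and 2 for sex without the 5 calves. None was a member.

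Leaving out 1 calf at a time turned the sign of some estimates. MYH1 ranged from -0.11 to 0.32 in TR2 and from -0.20 to 0.16 in females vs. males. MYH2 ranged from -0.0267 to 0.164 in TR3. MYH4 ranged from -1.41 to 1.10 in TR1, -1.39 to 0.88 in TR2, -1.16 to 0.85 in TR3, -0.98 to 1.77 in TR3 vs. TR1 and -1.17 to 0.59 in females vs. males. TNNT3 ranged from -0.141 to 0.0205 in TR2 and from -0.0110 to 0.200 in females vs. males. The Spearman correlation ranged from -0.145 to 0.0103 for MYH1 and MYH2, from -0.53 to -0.37 for MYH2 and MYH4, and from 0.36 to 0.45 for MYH4 and TNNT3, whose adjusted p rose above 0.05 without any of 5 calves (A2034, A2040, A2052, A2066 and A2033). MYH4 rested on 3 to 14 reads in the 5 low-MYH1 calves, which limits its precision there.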
